A study of Mus musculus with 8 samples.

Results

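Transcripts of 10 genes of the bone morphogenetic protein (BMP) pathway were followed in whole brains of mouse embryos. They are the ligands *Bmp4*, *Bmp5*, *Bmp6* and *Bmp7*, the type I receptors *Bmpr1a* and *Bmpr1b*, and the inhibitor-of-DNA-binding genes *Id1*, *Id2*, *Id3* and *Id4*. Signalling itself was not measured. The genes were taken by name from the 33971 genes of the deposited table, each stood on 1 identifier, and all 10 passed the filter on low counts, as 19367 genes did. The embryos were wild-type (WT) offspring of WT females time-mated with WT males. One group came from dams given a choline-deficient diet (CDD) from the day of mating until collection (4 brains), the other from dams kept on normal chow diet (ND, 4 brains). All brains were collected at E14.5 and their poly-A RNA was sequenced in bulk. The comparison sets transcript levels in the embryonic brain under a choline-deficient maternal diet beside those under normal chow. Whether the diets differed only in choline is not stated in the sources used here. No allele or agent other than the diet is named as separating the groups, and the strain and sex of the embryos are not given in the sources used here. Neither is the number of dams and litters, so each p-value below measures only the spread between these 8 brains. Differences between the diets cannot be told apart from differences between dams.

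BMPs are secreted dimers that bind a complex of type I and type II serine/threonine kinase receptors. The type I receptor phosphorylates Smad1, Smad5 and Smad9, which join Smad4, enter the nucleus and switch target genes on, among them the Id genes. Id proteins have a helix-loop-helix domain but no region that contacts DNA, so they hold E proteins such as Tcf3, Tcf4 and Tcf12 away from the proneural factors that need them as partners. In the embryonic forebrain BMPs are made at the dorsal midline, in the choroid plexus and in the meninges, and Id genes are known for keeping progenitors undifferentiated.

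The libraries held between 31770217 and 43121170 counted reads. Values set between brains are CPM, read counts divided by the TMM-scaled size of the library, and a gene was called when its adjusted p, from edgeR's quasi-likelihood test with Benjamini-Hochberg adjustment over all 19367 genes, was under 0.05. By that rule 1710 genes (8.83%) were called, 822 higher in CDD (4.24%) and 888 lower (4.59%), and the 4 brains of one diet lay entirely above those of the other for 2912 genes (15.0%). An unadjusted p under 0.05 in the same test was found for 4627 of the 19367 genes. Of the 8 libraries, 3 stood apart. CDD replicate 2 held 108 CPM in summed Hox genes of the caudal hindbrain and spinal cord, against at most 0.392 CPM in any other brain. In CDD replicate 4 long genes were shifted upwards and short genes downwards, by a median of 0.05 in the longest genes (over 5192 bases) and -0.08 in the shortest (up to 2620 bases) on the log2 scale. In ND replicate 3 the 8 erythroid markers summed to 2983 CPM, against 759 to 1614 CPM in the other brains. Of these markers 2 (25% against 8.83% of all genes) were called, the embryonic globins *Hbb-y* (log2 fold change 2.24) and *Hba-x* (1.67), both higher in CDD. Most of the list went the other way, with 3 of the 8 erythroid markers above 0, 5 below and a median of -0.56. For the calls among the 10 genes, the values without these brains are given beside them. Markers of neurons and of neural progenitors were abundant in every brain, and none of them was at 0. In bulk tissue, fewer cells of a type and less RNA per cell cannot be told apart.

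Of the 10 genes, 4 were called, which is 40% against 8.83% of all genes. The 10 genes were chosen with earlier results of these data known, so this contrast is a description and was not tested. The count of called genes was 1 without ND replicate 3, 2 without ND replicate 1 or without ND replicate 4, and 1 at an adjusted p under 0.01. It was 0 with limma on log2(FPKM + 1), where 5 of the 10 had an unadjusted p under 0.05, beside 4449 of all 22908 genes. *Bmpr1b* and *Id4* were higher in CDD brains, and *Bmp6* and *Id2* were lower. These were also the 4 genes whose brains did not overlap between the diets, against the 15.0% of all genes. The median log2 fold change of the 10 genes was -0.04, beside -0.0038 for all genes tested, with 4 genes above 0 and 6 below. Without CDD replicate 4 that median was 0.0146. The movement was therefore not in 1 direction, and ligands, receptors and Id genes are described in turn.

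The promoters of the called genes, and of *Id3* as an Id gene that was not called, are shown first because Smad complexes reach BMP target genes through short DNA elements. RefSeq windows on GRCm38.p6, from 250 bases before to 50 bases after the annotated start, were matched by symbol for 8 of the 10 genes (*Bmp7* and *Id1* had no entry). Capitals mark GGCGCC, a GC-rich Smad1/5 element that reads the same on both strands, and the Smad-binding element CAGAC, which reads GTCTG on the other strand. The *Id2* window lies at chr12:25096043-25096342 on the minus strand, that of *Id4* at chr13:48260866-48261165 on the plus strand, and that of *Id3* at chr4:136143572-136143871 on the plus strand. The *Bmp6* window lies at chr13:38345466-38345765 on the plus strand. For *Bmpr1b*, which has 3 windows, the most upstream one is given, at chr3:141982215-141982514 on the minus strand.
Id2: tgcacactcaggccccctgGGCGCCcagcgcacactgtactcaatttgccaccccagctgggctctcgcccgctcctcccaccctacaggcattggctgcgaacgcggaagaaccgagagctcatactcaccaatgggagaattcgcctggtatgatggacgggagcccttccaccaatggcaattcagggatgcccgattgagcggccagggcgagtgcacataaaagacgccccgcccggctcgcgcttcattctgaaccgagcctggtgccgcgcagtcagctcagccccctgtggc
Id4: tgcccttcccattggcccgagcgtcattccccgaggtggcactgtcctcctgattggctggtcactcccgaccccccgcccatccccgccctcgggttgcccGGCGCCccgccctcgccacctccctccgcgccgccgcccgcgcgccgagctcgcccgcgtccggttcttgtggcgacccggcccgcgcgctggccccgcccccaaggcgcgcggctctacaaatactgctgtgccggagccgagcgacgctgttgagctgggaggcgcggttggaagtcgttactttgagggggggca
Id3: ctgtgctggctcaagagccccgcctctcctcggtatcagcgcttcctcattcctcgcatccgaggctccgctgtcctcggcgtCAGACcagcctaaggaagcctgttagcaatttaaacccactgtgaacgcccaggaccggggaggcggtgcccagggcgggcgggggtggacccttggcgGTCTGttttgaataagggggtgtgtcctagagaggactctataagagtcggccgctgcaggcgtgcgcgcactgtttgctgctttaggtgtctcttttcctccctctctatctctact
Bmp6: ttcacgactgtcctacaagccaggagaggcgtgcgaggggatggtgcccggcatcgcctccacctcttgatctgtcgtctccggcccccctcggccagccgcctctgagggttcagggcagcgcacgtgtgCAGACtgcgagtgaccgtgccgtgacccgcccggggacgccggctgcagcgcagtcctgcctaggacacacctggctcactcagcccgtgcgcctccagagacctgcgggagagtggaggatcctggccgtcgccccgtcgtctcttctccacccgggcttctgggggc
Bmpr1b: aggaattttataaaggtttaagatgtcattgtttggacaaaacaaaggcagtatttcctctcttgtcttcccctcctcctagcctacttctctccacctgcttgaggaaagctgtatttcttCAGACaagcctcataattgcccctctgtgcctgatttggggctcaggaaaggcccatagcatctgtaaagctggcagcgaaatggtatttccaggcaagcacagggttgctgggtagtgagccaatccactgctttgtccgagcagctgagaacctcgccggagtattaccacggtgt

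The *Id2* and *Id4* windows each held 1 GGCGCC, as did the *Bmpr1a* window, while 11.9% of all 32851 windows of 300 bases hold one. The *Id3* window held the Smad-binding element at 2 places, 1 in each orientation, and the windows of *Bmp5*, *Bmp6* and the most upstream *Bmpr1b* start held 1 match, a motif found in 49.6% of all windows. Thus the Id gene that fell and the Id gene that rose shared the GC-rich element in these windows. E-boxes (CANNTG, the site of the helix-loop-helix factors that Id proteins restrain, counted once for both strands) numbered 3 for *Bmp4* and for the printed *Bmpr1b* window, 2 for *Bmp6*, 1 for *Id2* and 0 for *Id3* and *Id4*, and 72.3% of all windows hold at least 1. The GC content was 63.3% for *Id2*, 73.3% for *Id4*, 79.3% for *Bmpr1a* and 48.3% for the *Bmpr1b* window, with a median of 52.7% over all windows. The 3 windows with GGCGCC were thus richer in GC than that median. So were windows without it, those of *Bmp6* (69.3%), *Bmp4* (64%) and *Id3* (60%) and the other *Bmpr1b* windows (53% and 55.7%). The share of 11.9% was not matched for GC. It does not tell whether the element is more frequent than the GC content of the 3 windows gives. A match is only a string of letters, and no binding was measured here.

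**Figure D1:**
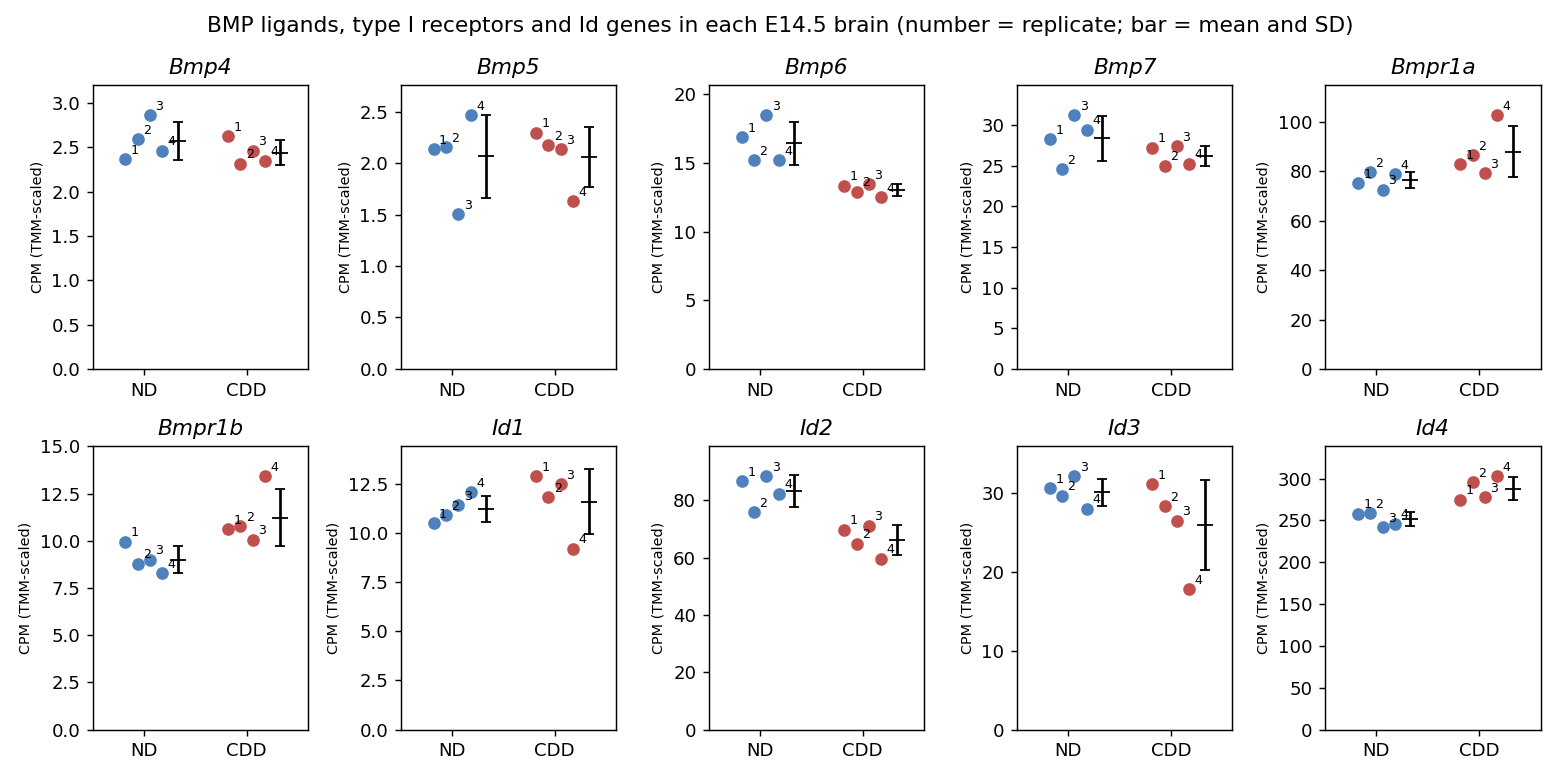
Level of each of the 10 genes (CPM, TMM-scaled, y axis from 0) in the 4 ND brains (blue) and the 4 CDD brains (red), with the replicate number beside each point and the mean and SD as a bar. Only *Bmp6*, *Bmpr1b*, *Id2* and *Id4* show no overlap between the diets. CDD replicate 4 is the lowest brain for *Bmp6*, *Id1*, *Id2* and *Id3* and the highest for *Bmpr1a*, *Bmpr1b* and *Id4*.

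Among the ligands, *Bmp6* was lower in CDD brains and the other 3 were not called. *Bmp6* (ENSMUSG00000039004, chromosome 13, 38529083 to 38684278 in the deposited table, whose genome build is not given in the sources used here) is a ligand of the *Bmp5* to *Bmp7* subgroup, known for its expression along the dorsal midline and for its part in iron balance. Its level was 13.3, 12.9, 13.5 and 12.5 CPM in CDD replicates 1 to 4 and 16.9, 15.2, 18.5 and 15.2 CPM in ND replicates 1 to 4. Every CDD brain lay below every ND brain. The log2 fold change was -0.33 (SE 0.077, 95% interval -0.49 to -0.17, adjusted p = 0.0126), that is, 0.794 times the ND level. It was -0.33 without CDD replicate 2 (adjusted p = 0.0262) and -0.31 without CDD replicate 4 (adjusted p = 0.0175). The call was lost without ND replicate 1 (adjusted p = 0.0505) or ND replicate 3 (adjusted p = 0.078), the ND brains with the highest *Bmp6* levels.

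*Bmp6* overlaps *Txndc5*, a gene for an endoplasmic reticulum thioredoxin, on the opposite strand. *Txndc5* had 17493 reads over the 8 brains against 4111 for *Bmp6*, and whether counting used strand is not given in the sources used here. For *Txndc5* itself the log2 fold change was 0.01 (SE 0.048, adjusted p = 0.929).

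*Bmp7* (ENSMUSG00000008999, chromosome 2, 172709805 to 172782114), the most highly expressed of the 4 ligands per length, stood at 27.2, 25.0, 27.4 and 25.2 CPM in CDD and 28.2, 24.6, 31.2 and 29.5 CPM in ND brains. The diets overlapped, and the log2 fold change of -0.11 (SE 0.07, 95% interval -0.26 to 0.03) was not called (adjusted p = 0.345). *Bmp4* (ENSMUSG00000021835, chromosome 14, 46620977 to 46628126), the ligand of the dorsal midline and of choroid plexus induction, ranged from 2.32 to 2.63 CPM in CDD and from 2.37 to 2.86 CPM in ND brains, a log2 fold change of -0.08 (SE 0.14, adjusted p = 0.797). Its 95% interval from -0.37 to 0.22, at 78 to 106 reads per brain, includes the *Bmp6* value of -0.33. *Bmp5* (ENSMUSG00000032179, chromosome 9, 75682646 to 75807592), a close relative of *Bmp6* and *Bmp7*, ranged from 1.63 to 2.29 CPM in CDD and from 1.5 to 2.46 CPM in ND brains. The *Bmp5* difference was -0.00 (SE 0.177, adjusted p = 0.996) with a 95% interval from -0.37 to 0.37, so that at 52 to 92 reads per brain a change as large as that of *Bmp6* was not detectable. Within the summed FPKM of the 4 ligands, *Bmp6* made up 29.2% ± 0.488 (SD, n = 4) in CDD and 32.6% ± 1.63 in ND brains, and *Bmp7* 56.9% ± 0.637 and 54.5% ± 1.81. FPKM, as the authors deposited them, are scaled to both gene length and sequencing depth.

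Cells that make these ligands were also followed through marker lists. The 8 choroid plexus markers summed to between 219 and 549 CPM in CDD and between 322 and 363 CPM in ND brains, and 0 of 8 were called by edgeR (3 had an unadjusted p under 0.05). *Ttr* made up most of that sum, with a mean of 277 CPM in CDD and 272 CPM in ND brains. Of the 8 log2 fold changes, 7 were above 0 and 1 below, with a median of 0.23. *Clic6* (0.43) and *Kcne2* (0.54) did not overlap between the diets, that is, 2 of 8 against 15.0% of all genes. The 8 meningeal fibroblast markers summed to between 463 and 515 CPM in CDD and between 491 and 587 CPM in ND brains. Of these 8, 5 were called (62.5% against 8.83% of all genes). *Col1a1*, *Col1a2* and *Aldh1a2* were lower and *Lum* and *Crabp2* higher in CDD, while *Col3a1* (-0.13), *Dcn* (-0.14) and *Foxc1* (-0.04) were not called. The log2 fold changes were above 0 for 2 and below 0 for 6, with a median of -0.14. None of the choroid plexus or meningeal markers had a level of 0. The part of either cell type in the *Bmp6* difference was not tested.

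Both type I receptors had log2 fold changes above 0, and *Bmpr1b* was called. *Bmpr1b* (ENSMUSG00000052430, chromosome 3, 141542897 to 141875186) encodes a BMP and GDF receptor of dorsal neural progenitors. It stood at 10.6, 10.8, 10.1 and 13.4 CPM in CDD replicates 1 to 4 and at 9.95, 8.78, 8.99 and 8.29 CPM in ND replicates 1 to 4. The lowest CDD brain lay just above the highest ND brain, and CDD replicate 4 was well above the rest. The log2 fold change was 0.32 (SE 0.097, 95% interval 0.11 to 0.52, adjusted p = 0.0485), or 1.24 times the ND level. Removal of most single brains ended the call. It was lost without CDD replicate 1 (adjusted p = 0.064), CDD replicate 2 (0.33, adjusted p = 0.0691), CDD replicate 4 (0.22, adjusted p = 0.152), ND replicate 1 (adjusted p = 0.0648), ND replicate 2 (adjusted p = 0.102), ND replicate 3 (adjusted p = 0.138) or ND replicate 4 (adjusted p = 0.161), and it held only without CDD replicate 3 (adjusted p = 0.0233).

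*Bmpr1a* (ENSMUSG00000021796, chromosome 14, 34132691 to 34225298), the broadly expressed type I receptor, stood at 83, 86.6, 79.2 and 102.7 CPM in CDD and at 75.2, 79.7, 72.5 and 78.9 CPM in ND brains. The diets overlapped through a single pair, CDD replicate 3 and ND replicate 2. The log2 fold change was 0.20 (SE 0.067, 95% interval 0.06 to 0.34), with an unadjusted p of 0.00949 and an adjusted p of 0.0781. It was 0.11 without CDD replicate 4 (adjusted p = 0.125) and 0.25 without CDD replicate 3 (adjusted p = 0.02), the only brain whose removal brought it past the threshold. Per length *Bmpr1a* exceeded *Bmpr1b* by 7.36 ± 0.147 times in CDD and 8.03 ± 0.842 times in ND brains (ratio of FPKM, SD, n = 4).

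Among the Id genes, *Id2* fell and *Id4* rose in CDD brains, while *Id1* and *Id3* were not called. *Id2* (ENSMUSG00000020644, chromosome 12, 25143798 to 25147139), known in the brain from cortical neurons and from progenitors, had 69.7, 64.9, 71.1 and 59.6 CPM in CDD replicates 1 to 4 and 86.8, 75.9, 88.5 and 82.4 CPM in ND replicates 1 to 4. All CDD brains were below all ND brains. The log2 fold change was -0.33 (SE 0.058, 95% interval -0.45 to -0.21, adjusted p = 0.00288), or 0.796 times the ND level. *Id2* remained called with each of the 8 brains left out in turn, with adjusted p between 0.000907 and 0.0209, and stood at -0.32 without CDD replicate 2, -0.28 without CDD replicate 4 and -0.30 without ND replicate 3.

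*Id4* (ENSMUSG00000021379, chromosome 13, 48414704 to 48419502), which promotes the expansion of neural progenitors and is required for normal brain size, had 274.7, 295.3, 277.7 and 302.9 CPM in CDD replicates 1 to 4 and 258.2, 258.2, 241.9 and 246.3 CPM in ND replicates 1 to 4. All CDD brains were above all ND brains. The log2 fold change was 0.20 (SE 0.047, 95% interval 0.10 to 0.29, adjusted p = 0.0153), or 1.15 times the ND level. It was 0.18 without CDD replicate 2 (adjusted p = 0.0459) and 0.17 without CDD replicate 4 (adjusted p = 0.019), and the call was lost without ND replicate 3 (adjusted p = 0.0954) or ND replicate 4 (adjusted p = 0.0693), the ND brains with the lowest *Id4* levels.

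*Id1* (ENSMUSG00000042745, chromosome 2, 152578171 to 152579330) and *Id3* (ENSMUSG00000007872, chromosome 4, 135870808 to 135873066) are the Id genes most often used as readouts of BMP signalling and are also expressed in blood vessels. *Id1* had 12.9, 11.8, 12.5 and 9.20 CPM in CDD and 10.5, 10.9, 11.4 and 12.1 CPM in ND brains, a log2 fold change of 0.05 (SE 0.096, 95% interval -0.15 to 0.25, adjusted p = 0.813). *Id3* had 31.2, 28.4, 26.5 and 17.8 CPM in CDD and 30.6, 29.7, 32.2 and 28 CPM in ND brains, a log2 fold change of -0.21 (SE 0.154, 95% interval -0.57 to 0.14, adjusted p = 0.458). CDD replicate 4 was the lowest of the 8 brains for both, and without it the differences were 0.14 for *Id1* (adjusted p = 0.339) and -0.07 for *Id3* (adjusted p = 0.573). The 8 endothelial markers summed to between 328 and 351 CPM in CDD and to between 341 and 354 CPM in ND brains. Of the 8, 1 (*Cldn5*) was called, as lower, that is, 12.5% against 8.83% of all genes. Their log2 fold changes were above 0 for 2 and below 0 for 6, with a median of -0.06. CDD replicate 4 had the lowest sum (328 CPM), close to the 333 CPM of CDD replicate 1, the brain with the highest *Id1* level. The part of blood vessels in the *Id1* and *Id3* levels was not tested.

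**Figure D2:**
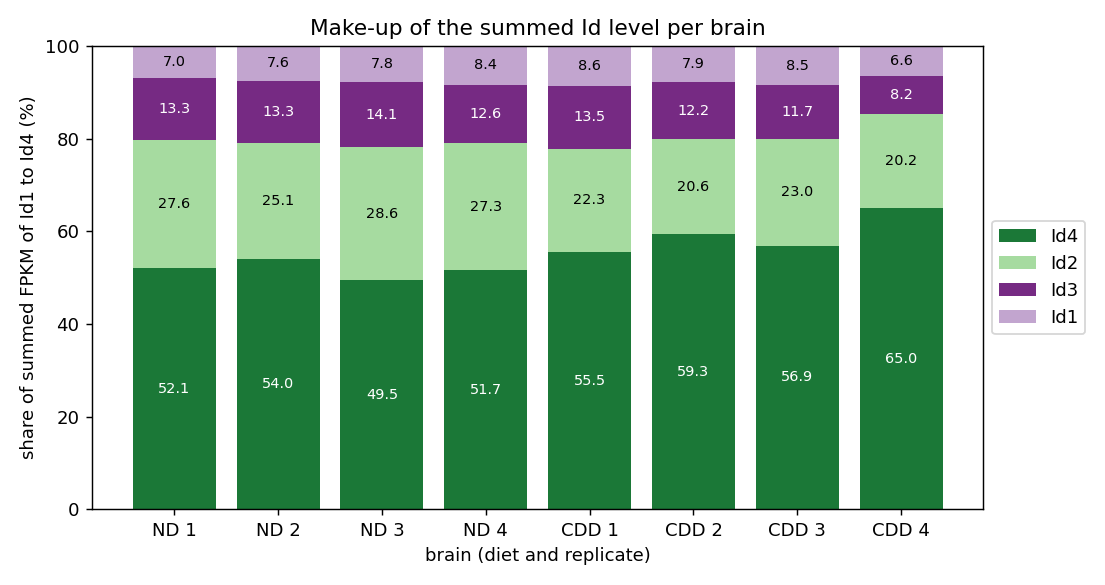
Share of each Id gene in the summed FPKM of *Id1* to *Id4* (%, y axis from 0 to 100) for each ND and CDD brain, with the share printed in each segment. The *Id4* share lies between 49.5% and 54.0% in ND and between 55.5% and 65.0% in CDD brains, and the *Id2* share is lower in every CDD brain.

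The summed Id level overlapped between the diets, while its make-up differed. The summed FPKM of the 4 Id genes was 126 ± 3.20 in CDD and 125 ± 2.38 in ND brains (SD, n = 4). *Id4* made up 59.2% ± 4.19 of that sum in CDD and 51.8% ± 1.85 in ND brains, and *Id2* 21.5% ± 1.34 and 27.1% ± 1.49. The ratio of *Id4* to *Id2* was 2.77 ± 0.355 in CDD and 1.92 ± 0.176 in ND brains, with values from 2.47 to 3.22 and from 1.73 to 2.16, so the diets did not overlap. These ratios restate the calls of *Id2* and *Id4* and were not tested on their own.

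The 8 markers of radial glia and neural progenitors summed to 1615, 1696, 1536 and 1683 CPM in CDD replicates 1 to 4 and to 1442, 1477, 1422 and 1399 CPM in ND replicates 1 to 4, and did not overlap. Of the 8, *Pax6* (log2 fold change 0.25), *Vim* (0.21) and *Nes* (0.47) were called, all higher in CDD, that is, 37.5% against 8.83% of all genes. The other 5 were not called, with values of 0.09 for *Sox2*, 0.23 for *Hes1*, 0.21 for *Hes5*, 0.03 for *Slc1a3* and -0.04 for *Fabp7*. The 8 neuronal markers summed to between 6234 and 7021 CPM in CDD and between 6385 and 6614 CPM in ND brains. Of these 8, 1 (*Snap25*, -0.23) was called, as lower, that is, 12.5% against 8.83% of all genes. Their log2 fold changes were above 0 for 3 and below 0 for 5, with a median of -0.02. The part of cell make-up in the *Id4*, *Id2* and *Bmpr1b* differences was not tested.

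**Figure D3:**
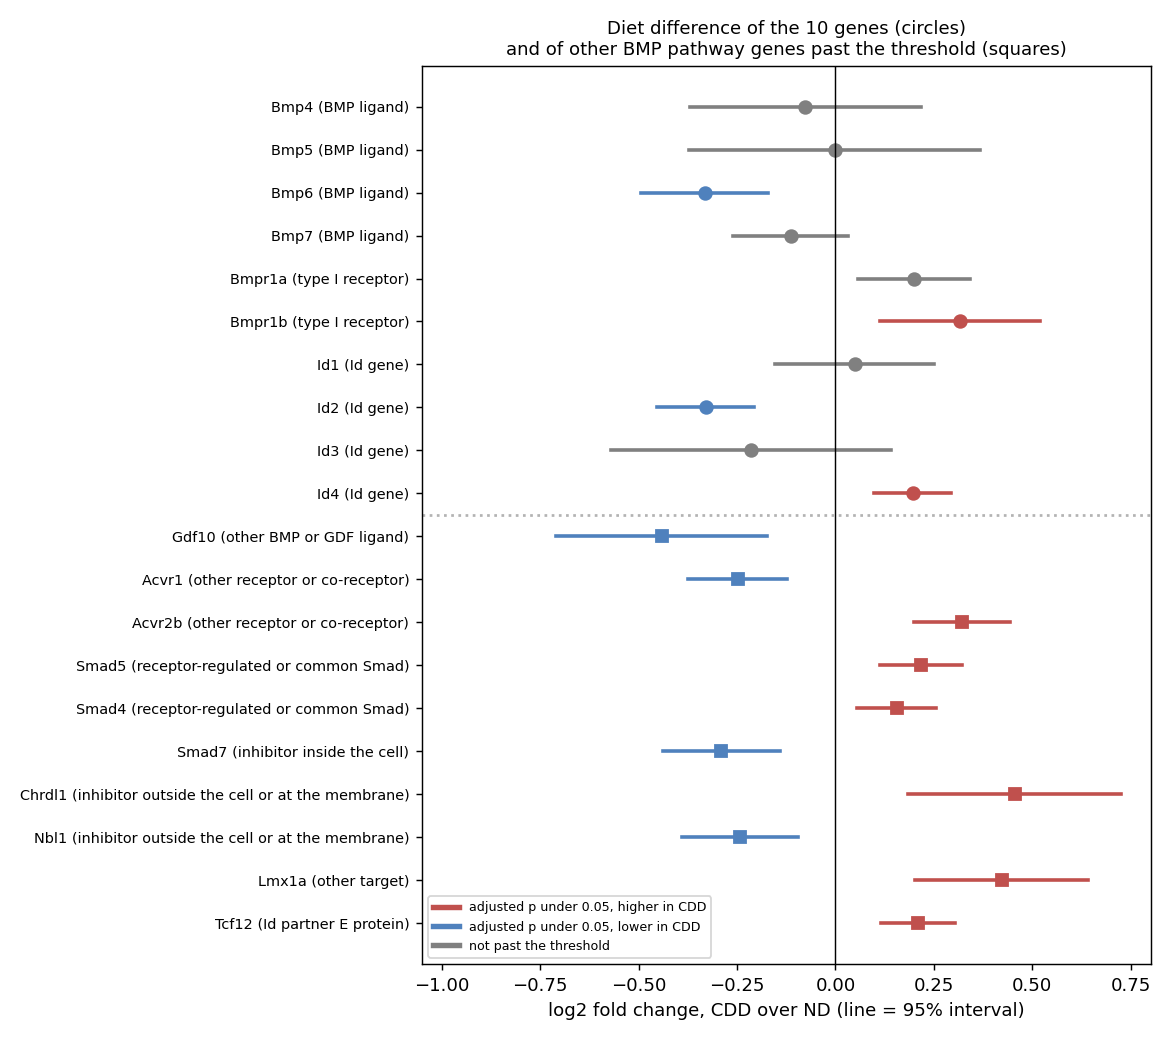
Log2 fold change of CDD over ND (x axis, with the 95% interval as a line) for the 10 genes (circles) and for the 10 other BMP pathway genes past the threshold (squares), coloured by call. *Id2* and *Bmp6* sit at -0.33, and *Bmpr1b* and *Id4* at 0.32 and 0.20, with intervals that leave out 0.

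Across genes, levels were set side by side in the deposited FPKM, over all 8 brains. *Id4* was the highest with 69.7 ± 5.94 FPKM, followed by *Id2* (30.6 ± 4.18), *Id3* (15.6 ± 2.47), *Bmpr1a* (12.9 ± 1.51) and *Id1* (9.79 ± 0.993). The ligands and *Bmpr1b* were lower, with *Bmp7* at 6.76 ± 0.557, *Bmp6* at 3.76 ± 0.527, *Bmpr1b* at 1.69 ± 0.275, *Bmp4* at 1.11 ± 0.0772 and *Bmp5* at 0.510 ± 0.0801 FPKM. Neighbours in this order had separate ranges except *Id3* and *Bmpr1a*, whose ranges over the brains overlapped. The mean of *Id4* was 137 times that of *Bmp5*. Thus the transcripts of the intracellular Id genes were more abundant in the whole brain than those of the 4 secreted ligands.

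The other genes of the pathway were read from the same fit. Of 56 genes listed by role, 55 were in the table and 52 were tested. Of these, 10 were called (19.2% against 8.83% of all genes), 6 higher and 4 lower in CDD. This list too was chosen with earlier results of these data known, so the contrast is only a description. An unadjusted p under 0.05 was found for 18 of the 52, beside 4627 of all 19367 genes. The median log2 fold change was 0.06, with 33 above 0 and 19 below. The count of 10 called genes was 2 without ND replicate 3, 3 without ND replicate 1, 6 without ND replicate 4 or without CDD replicate 1, and 2 at an adjusted p under 0.01. It was 0 with limma on log2(FPKM + 1), where 17 of 52 had an unadjusted p under 0.05, beside 4449 of all 22908 genes.

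Of the 7 other ligands tested, *Gdf10*, a divergent member of the family, was called at -0.44 (SE 0.127, adjusted p = 0.0392, 5.53 to 8.14 CPM in CDD and 7.63 to 10.7 CPM in ND brains). Of the 9 other receptors and co-receptors, the type I receptor *Acvr1* was lower (-0.25, SE 0.06, adjusted p = 0.0157) and the type II receptor *Acvr2b* higher (0.32, SE 0.058, adjusted p = 0.00317). *Acvr2b* stood between 63.3 and 79.3 CPM in CDD and between 54.2 and 58.5 CPM in ND brains, with no overlap. The type II receptor *Bmpr2*, the main partner of *Bmpr1a* and *Bmpr1b*, was at 0.13 (SE 0.101, adjusted p = 0.495). Type I receptors were thus called in both directions, *Acvr1* as lower and *Bmpr1b* as higher.

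Of the Smads that carry the signal, *Smad5* was higher (0.22, SE 0.05, adjusted p = 0.0116), and *Smad4* passed the threshold narrowly (0.16, SE 0.048, adjusted p = 0.0499). *Smad1* had a value of -0.10 (SE 0.046, adjusted p = 0.176). Among 7 inhibitors inside the cell, *Smad7*, a feedback inhibitor of the receptors, was lower (-0.29, SE 0.071, adjusted p = 0.0166), with 13.5 to 15.6 CPM in CDD and 16.8 to 18 CPM in ND brains. *Smad6*, the inhibitory Smad most closely tied to BMP receptors, was at -0.03 (SE 0.117, adjusted p = 0.923).

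Among 13 inhibitors outside the cell or at the membrane, *Chrdl1*, a chordin-like antagonist, was higher (0.46, SE 0.129, adjusted p = 0.0348) and *Nbl1*, an antagonist of the DAN family, lower (-0.24, SE 0.07, adjusted p = 0.0372), while *Nog* was at -0.16 (SE 0.09, adjusted p = 0.292). Of 6 other targets, *Lmx1a*, a homeobox gene of the roof plate and cortical hem, was higher (0.42, SE 0.105, adjusted p = 0.018). Of the E proteins that Id proteins bind, *Tcf12* was higher (0.21, SE 0.045, adjusted p = 0.00768), with 202 to 229 CPM in CDD and 183 to 190 CPM in ND brains, and *Tcf3* (0.13, adjusted p = 0.113) and *Tcf4* (0.10, adjusted p = 0.285) were not called. None of the 3 proteases that cut ligands or antagonists was called by edgeR, and 1 had an unadjusted p under 0.05.

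*Acvr2b* and *Tcf12* remained called with each brain left out in turn. *Smad5* was lost without ND replicate 1 or 3 (adjusted p = 0.0624 and 0.0655), *Smad7* without ND replicate 1 or 3 (0.0663 and 0.0768), *Acvr1* without CDD replicate 1, ND replicate 3 or ND replicate 4 (0.0508 to 0.083), and *Lmx1a* without CDD replicate 1, ND replicate 1 or ND replicate 3 (0.0504 to 0.0893). *Gdf10* was lost without CDD replicates 3 or 4 or ND replicates 1, 3 or 4 (0.0673 to 0.14), *Smad4* without CDD replicates 1 or 4 or ND replicates 1, 3 or 4 (0.0836 to 0.183), *Chrdl1* without CDD replicates 2 or 4 or ND replicates 1, 2 or 3 (0.0765 to 0.115), and *Nbl1* without CDD replicates 1, 2 or 4 or ND replicates 1, 3 or 4 (0.0503 to 0.141). With all brains, limma-voom also ended the calls of *Gdf10* (adjusted p = 0.0503), *Nbl1* (0.0501) and *Smad4* (0.0785), and an offset for gene length in each brain ended that of *Nbl1* (0.0659). *Smad4* was further lost with RLE scaling (0.0538), upper-quartile scaling (0.0562) and a minimum of 10 counts in every brain (0.0583).

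**Figure D4:**
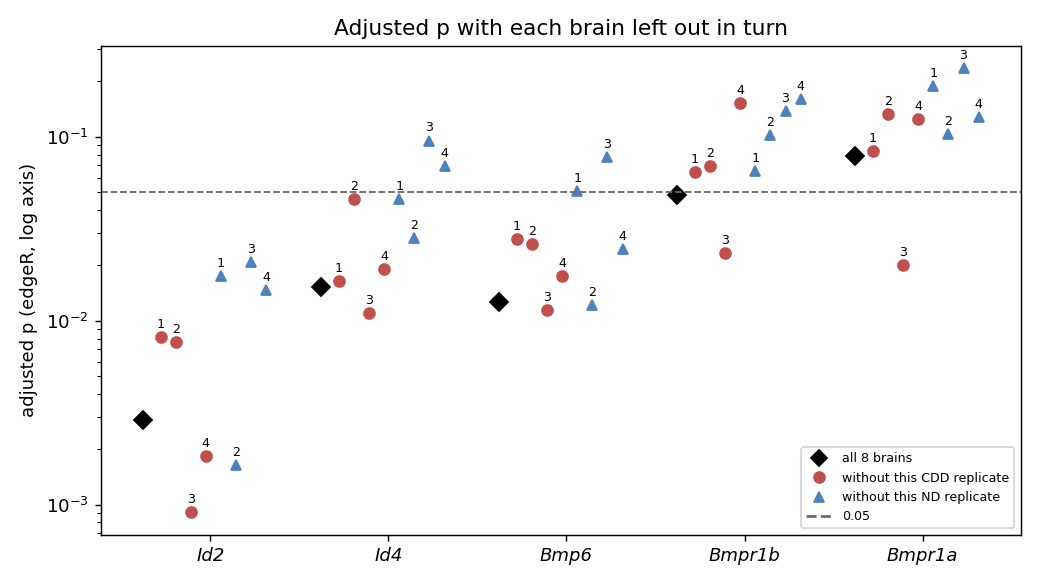
Adjusted p of the 4 called genes and of *Bmpr1a* (y axis, log scale) with all 8 brains (diamond) and without each CDD (circle) or ND (triangle) replicate, numbered; the dashed line is 0.05. *Id2* stays below the line in all 8 fits, and *Bmpr1b* is below it only without CDD replicate 3.

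Gene length was compared because long and short genes differed between the brains. The median log2 fold change was -0.0287 in the shortest genes tested (27 to 2620 bases, 6457 genes), -0.0155 in the middle class and 0.0201 in the longest (5193 to 123179 bases, 6456 genes). The receptors *Bmpr1a* (6351 bases) and *Bmpr1b* (5962 bases) belong to the longest class. *Id1* (1160 bases), *Id3* (1791 bases), *Bmp4* (2248 bases) and *Id2* (2438 bases) belong to the shortest, the class shifted downwards in CDD replicate 4. *Bmp5* (4025 bases), *Bmp6* (3900 bases), *Bmp7* (4019 bases) and *Id4* (3849 bases) belong to the middle class. With an offset for length in each brain, an alternative chosen after seeing the data, the same 4 genes were called, at -0.30 for *Bmp6*, 0.33 for *Bmpr1b*, -0.29 for *Id2* and 0.23 for *Id4*, and *Bmpr1a* came to an adjusted p of 0.0504.

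From the 15887 genes whose mean reached 1 CPM, the ones whose levels ran most like those of the called genes over the 8 brains were taken by Pearson's r of log2 CPM. They were *B3galt5*, *B3gnt7* and *Kcnc4* for *Bmp6* (r = 0.973 and above), *Arpp21*, *Slc22a4* and *Sst* for *Id2* (r = 0.986), *Ints4*, *Parp11* and *Zfp882* for *Bmpr1b* (r = 0.976 to 0.987), and *Ston2*, *Pgk1* and *Carhsp1* for *Id4* (r = 0.989 to 0.992). The points share libraries and the diet difference itself, the genes were picked as the highest of many, and no test was made. Between the 10 genes, with the diet means subtracted, r ran from -0.93 (*Bmpr1b* and *Id1*) to 0.84 (*Id1* and *Id3*). The latter was -0.08 without CDD replicate 4, so it rested on that brain.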

How the data were processed

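Poly-A RNA of 8 whole E14.5 brains (4 CDD, 4 ND, grouped by the maternal diet in the labels) was analysed. The submitters' processing notes name HISAT2 2.0.5, featureCounts 1.5.0-p3 and DESeq2 1.20.0, while the genome build, annotation and strand setting are not given in the sources used here. The authors deposited raw counts per gene and brain, a normalized signal (the count divided by 1 size factor per library, not used for tests) and FPKM per listed gene length. Their own fold changes, p-values and adjusted p-values, and 3 shorter lists chosen by them, were not used.

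Counts were filtered with filterByExpr, scaled by TMM and tested by diet with edgeR 4.0.16 (robust quasi-likelihood test, 2-sided, R 4.3.3, common biological coefficient of variation 0.0814), with Benjamini-Hochberg adjustment over 19367 genes and a threshold of 0.05. CPM served to compare brains and FPKM to compare genes. Totals of 31770217 to 43121170 reads set the precision, and no brains were duplicates (chi-square per degree of freedom at least 3.534). The scripts were tested on simulated data. The 10 genes, the pathway and marker lists and the tests were chosen with earlier results of these data known. Named genes were the 10 genes, the other pathway genes past the threshold, their direct partners by value, and the 3 genes most like each called gene. Alternatives were RLE and upper-quartile scaling, DESeq2 1.42.0, limma-voom (limma 3.58.1), 2 other filters, a replicate block, a threshold of 0.01, limma on log2(FPKM + 1) for genes with a mean FPKM of at least 0.1, each brain left out, and a length offset (loess span 0.3) added after seeing the data.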

Additional observations from a re-analysis of the deposited data

How the results depend on the processing

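Of the 10 genes, 4 were called. At an adjusted p under 0.01 there was 1 (*Id2*) and of the other pathway genes 2 in place of 10, and over all genes 477 in place of 1710. With limma on log2(FPKM + 1), 0 of the 10 and 0 of the other pathway genes were called, where 5 and 17 had an unadjusted p under 0.05, with 7 genes called of 22908 and 4449 at an unadjusted p under 0.05; the adjusted p was 0.065 for *Id2*, 0.0746 for *Bmp6*, 0.0756 for *Id4* and 0.171 for *Bmpr1b*, and the cause was not tested. DESeq2 called 5 of the 10 genes and limma-voom 3. Without any 1 brain, the calls ranged from 1 to 5 of the 10 genes and from 2 to 12 of the other pathway genes, with the fewest (471 over all genes) without ND replicate 3, 615 without ND replicate 4, 688 without ND replicate 1 and 1208 without CDD replicate 1. The median log2 fold change of the 10 genes ran from -0.0805 to 0.0146, the latter without CDD replicate 4. *Bmpr1b* was also lost with upper-quartile scaling (adjusted p = 0.053) and limma-voom (0.0761). *Bmpr1a* was called with DESeq2 (0.0486) and with no filter on low counts (0.0017). *Bmp6*, *Id2* and *Id4* kept their direction under every alternative run and their call except as given here and in the text.

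With the replicate number as a block, 4 of the 10 genes were called, 3 of them the same, with *Bmpr1a* (adjusted p = 0.0207) in place of *Bmpr1b* (0.0575), 8 of the other pathway genes (*Gdf10* at 0.0637 and *Smad4* at 0.0613 were lost), and 1812 genes in all. Same-numbered brains correlated at 0.242, -0.279, 0.234 and 0.406 in their deviations from the diet means, and 3 of 4 correlated best with their own number, a hint from the data. Because 1 pair was negative and no label ties a number to a litter or day, the numbers were not treated as pairs.

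*Bmp5*, at -0.0024, changed sign with RLE scaling (6.57e-05), DESeq2 (0.00109), limma-voom (0.0118), the block (0.00771), FPKM (0.000797) and the length offset (0.0269), and ran from -0.129 to 0.0949 with a brain left out. With a brain left out, *Id1* ran from -0.00073 to 0.142 and *Smad6* from -0.0959 to 0.0554, and *Smad6* came to 0.00572 with the length offset. None of these was called.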
